A study of Mus musculus with 6 samples.

Results

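The 6 genes Hnf4a, Hnf4g, Ppara, Rxra, Nr1h4 and Maf encode transcription factors of the proximal tubule, the nephron segment that reabsorbs most of the filtrate and that makes glucose and burns fatty acids. They were chosen by name as regulators of proximal tubule identity and lipid metabolism, with earlier results of these data known. They were located on the arrays through the RefSeq accession of each probe. All 6 were found, with 9 probes, among 23785 genes named on the array. All 6 passed the filter on dim probes, as did 17136 genes in all, and each was well above background on every array.

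RNA of whole mouse kidney was measured on 6 Agilent 1-colour arrays, 3 labelled Pck1-CKO and 3 labelled WT (wild-type). Pck1-CKO kidneys carried Pck1 flox/flox with 1 copy of a γGT-Cre transgene, which directs the deletion of Pck1, the cytosolic phosphoenolpyruvate carboxykinase of gluconeogenesis, to the proximal tubule. The WT group consisted of littermates of the same age and sex. The breeding yields controls that are Pck1 flox/flox, Pck1 flox/+ or Pck1 flox/+ with γGT-Cre, so a WT animal may carry floxed alleles or the transgene, and the labels do not give the genotype of each. All animals were C57BL/6J and 32 weeks old. Whether each array came from a separate mouse is not stated, and p-values cover only the spread among these 6 samples, which may be technical.

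As background, HNF4A and HNF4G are closely related nuclear receptors, and in mouse HNF4A is needed for proximal tubule cells to mature and to keep their transporters. PPARA is activated by fatty acids and switches on genes of fatty acid oxidation. The bile acid receptor FXR is encoded by Nr1h4. PPARA and FXR bind DNA mainly as partners of RXRA, the retinoid X receptor, which also pairs with the receptors for retinoic acid, vitamin D and oxysterols. MAF is a basic leucine zipper (bZIP) factor and belongs to another protein family.

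Signals are given as log2 of the processed signal minus the 75th percentile of the array. A difference of 1 on this scale is a doubling. Probes differ in brightness for reasons other than RNA amount, so levels were not ranked between genes. The single probe of Pck1 was bright in every sample, with 6.44, 6.60 and 6.90 in Pck1-CKO and 6.29, 6.32 and 5.63 in WT. Its log2 change was 0.56 ± 0.22 (SE, n = 3 per group; limma adjusted p = 0.152). The labels do not place this probe inside or outside the floxed exons, so it does not check them. All 20 proximal tubule markers were measured, with a summed scaled signal between 2749 and 2902 in Pck1-CKO and between 2697 and 2848 in WT. None of them passed the test in limma. Before adjustment 4 were higher and 1 lower at a p under 0.05. Of 10 markers of other nephron segments, all above background, 1 (Aqp2) rose and 4 fell, where 4.34% of all genes rose and 3.70% fell. Their summed scaled signal was 503.2 to 518.4 in Pck1-CKO and 479.7 to 494.7 in WT. Adipocyte markers differed between the groups, with summed scaled signals of 94.2 to 150.4 in Pck1-CKO and 17.5 to 37.1 in WT, and WT 1 was the lowest. In bulk RNA, fewer cells of a type and less RNA per cell cannot be told apart. The groups lay in different rows of the same slide, and the effects of row and genotype cannot be told apart.

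None of the 6 transcription factor genes passed the test between Pck1-CKO and WT kidney. Over all 17136 genes tested, limma called 8.04% at an adjusted p under 0.05, with 4.34% higher and 3.70% lower in Pck1-CKO. At an unadjusted p under 0.05 Rxra was the 1 gene of the 6, where 31.2% of all genes reached that level. The log2 changes of the 6 genes lay between -0.23 and 0.14, with 3 positive and 3 negative, and their median was -0.023, against 0.009 for all genes tested. Their median absolute change was 0.10, against 0.12 for all genes. In 3 of the 6 (Ppara, Rxra and Nr1h4) the 3 Pck1-CKO values did not overlap the 3 WT values, and 38.3% of all genes were separated in this way (21.9% with Pck1-CKO higher, as were 2 of the 6, and 16.4% with Pck1-CKO lower, as was 1). The gaps between the groups in these genes were only 0.029 to 0.033 on the log2 scale.

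**Figure D1:**
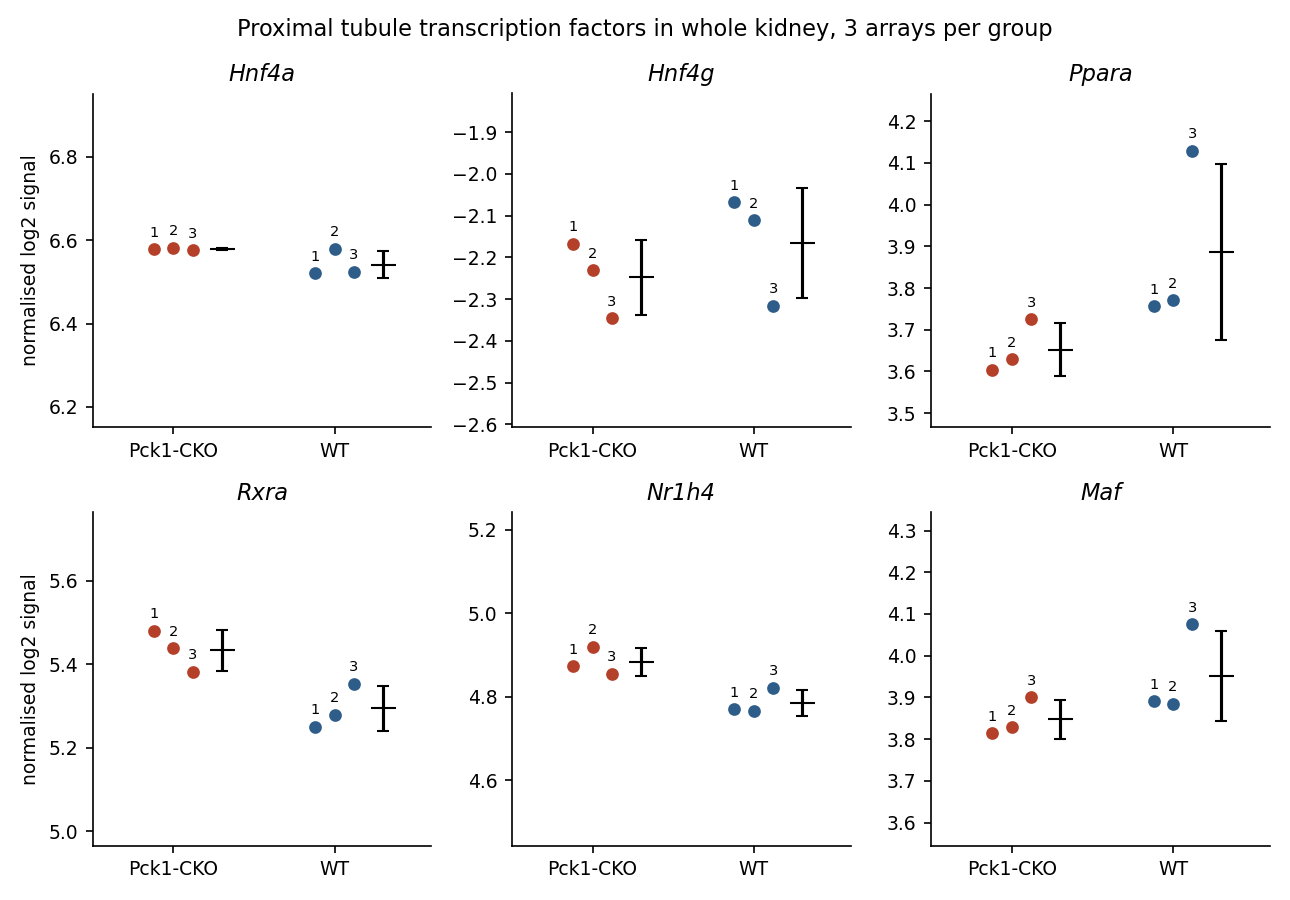
Normalised log2 signal of the 6 genes on each array, with Pck1-CKO at the left and WT at the right of each panel. Points are arrays with their sample number, bars are the mean and SD of 3 arrays, and every panel spans the same 0.8 log2 units. The 3 Hnf4a points of Pck1-CKO lie on top of each other in height, and WT 3 stands above the other arrays for Ppara and Maf.

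At the probes that stand for the genes, Hnf4a had the smallest change and the smallest SE of the 6. Its brighter probe read 6.58, 6.58 and 6.58 in Pck1-CKO, against 6.52, 6.58 and 6.52 in WT. The groups overlapped, since WT 2 lay among the Pck1-CKO arrays. Its log2 change came to 0.038 ± 0.038 (SE, n = 3 per group; limma adjusted p = 0.532), with a 95% confidence interval of -0.055 to 0.13. In linear terms that interval runs from 0.962-fold to 1.1-fold. The second Hnf4a probe, annotated to another RefSeq transcript of the gene, gave 0.71, 0.59 and 0.59 in Pck1-CKO and 0.66, 0.61 and 0.73 in WT. Its change was -0.037 ± 0.059 in a fit over all probes, and its groups overlapped too. In the same fit over all probes the brighter probe changed by 0.038 ± 0.044. The 2 probes thus differed in sign, each by less than its error.

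Hnf4g, the close relative of Hnf4a, had 1 probe. It read -2.17, -2.23 and -2.35 in Pck1-CKO, against -2.07, -2.11 and -2.32 in WT. The groups overlapped, with WT 3 close to Pck1-CKO 3. The change of -0.084 ± 0.085 (adjusted p = 0.537) had an interval of -0.29 to 0.13.

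RefSeq promoter windows, from 250 bases before a transcription start to 50 after it (build GRCm38.p6), were listed for Hnf4a, Rxra, Nr1h4 and Ppara. Hnf4a has 2 such starts. No window of the 4 genes held the HNF4 motif CAAAGTCCA on either strand, which is present in 0.475% of all 32851 windows.

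Rxra had the lowest p of the 6. Its brighter probe read 5.48, 5.44 and 5.38 in Pck1-CKO, against 5.25, 5.28 and 5.35 in WT. Every Pck1-CKO array lay above every WT array, with WT 3 the closest. Its log2 change came to 0.14 ± 0.049 (SE, n = 3 per group; unadjusted p = 0.0302, limma adjusted p = 0.121), with an interval of 0.019 to 0.26, or 1.01-fold to 1.20-fold. The second Rxra probe gave -1.40, -1.32 and -1.43 in Pck1-CKO and -1.70, -1.73 and -1.56 in WT, again without overlap. Its change was 0.28 ± 0.064, with adjusted p = 0.0664 over 38366 probes, of which 4.29% passed. Neither probe passed, and both pointed to a higher signal in Pck1-CKO. Rxra did pass with array weights (adjusted p = 0.0207) and with each array scaled to its median (adjusted p = 0.0476). Those settings called 3285 and 2434 of all 17136 genes higher.

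Nr1h4 ran close to Rxra across the arrays. It read 4.87, 4.92 and 4.85 in Pck1-CKO, against 4.77, 4.77 and 4.82 in WT. The groups did not overlap, and WT 3 was again the WT array nearest to Pck1-CKO. The change was 0.097 ± 0.041 (adjusted p = 0.172), with an interval of -0.004 to 0.20. With array weights it passed (adjusted p = 0.0298), a setting that called 3285 of all 17136 genes higher. Over the 6 arrays Pearson's r between Rxra and Nr1h4 was 0.91, and 0.64 after the group means were removed. These points share their arrays and scaling, and r is given as a description.

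The promoter windows of Rxra and Nr1h4 are shown together because these genes had the most similar course among the receptors. Capitals mark the nuclear receptor hexamer AGGTCA, searched on either strand (TGACCT on the other), which 16.3% of all windows hold. The Rxra window is that of its second start, chr2:27709042-27709341 on the plus strand. The Nr1h4 window is chr10:89506609-89506908 on the minus strand.
Rxra: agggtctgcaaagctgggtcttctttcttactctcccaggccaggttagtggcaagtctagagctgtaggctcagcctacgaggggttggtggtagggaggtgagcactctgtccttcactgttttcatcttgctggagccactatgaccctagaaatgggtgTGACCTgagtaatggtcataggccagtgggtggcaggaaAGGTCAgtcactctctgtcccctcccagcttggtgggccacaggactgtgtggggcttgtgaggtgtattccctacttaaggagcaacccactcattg
Nr1h4: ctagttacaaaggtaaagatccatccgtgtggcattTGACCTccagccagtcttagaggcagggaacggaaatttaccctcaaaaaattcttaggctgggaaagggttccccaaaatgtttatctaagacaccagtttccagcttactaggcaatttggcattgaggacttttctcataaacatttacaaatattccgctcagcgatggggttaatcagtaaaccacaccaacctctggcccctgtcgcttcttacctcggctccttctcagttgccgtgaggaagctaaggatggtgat
The Rxra window holds the hexamer in 2 places, starting 87 and 48 bases before the start, and the Nr1h4 window in 1 place, 214 bases before it. The direct repeat (DR1) and the inverted repeat (IR1) of this hexamer with 1 base between the copies, which contain it, were absent from the windows of all 4 genes, as was the MAF recognition element. Only 0.0396%, 0.00913% and 0.00304% of all windows hold these 3 motifs, so their absence here says little about these genes. The other Rxra window, both Hnf4a windows and the Ppara window held none of these motifs.

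Ppara had the most negative change of the 6, and it rested in large part on WT 3. Its brighter probe read 3.60, 3.63 and 3.73 in Pck1-CKO, against 3.76, 3.77 and 4.13 in WT. The groups did not overlap, but Pck1-CKO 3 came within 0.032 of WT 1. The change was -0.23 ± 0.11 (SE, n = 3 per group; limma adjusted p = 0.215), or 0.851-fold with an interval of 0.703-fold to 1.03-fold. Without WT 3 it was -0.11 (adjusted p = 0.207). The second Ppara probe read 1.85, 1.80 and 1.73 in Pck1-CKO and 1.85, 1.81 and 2.14 in WT. Here the groups overlapped, WT 3 was again the highest, and the change was -0.14 ± 0.10. Ppara is also active in brown fat, and the brown adipocyte markers had summed scaled signals of 51.7 to 56.0 in Pck1-CKO against 20.6 to 23.1 in WT. Their part in the Ppara signal was not tested.

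Maf followed the same course as Ppara. It read 3.81, 3.83 and 3.90 in Pck1-CKO, against 3.89, 3.88 and 4.08 in WT. The groups overlapped, with Pck1-CKO 3 above WT 1 and WT 2. The change was -0.10 ± 0.066 (adjusted p = 0.335), and -0.041 without WT 3. Pearson's r between Maf and Ppara over the 6 arrays was 0.99, and 0.99 after the group means were removed, as a description of arrays among which WT 3 was the highest for both. Maf is also made in macrophages and endothelium. Macrophage markers summed to 28.5 to 30.0 in Pck1-CKO and 28.7 to 29.0 in WT, with 0 of 10 past the test in limma (before adjustment, 3 higher and 1 lower). Endothelial markers summed to 76.9 to 82.6 in Pck1-CKO and 82.0 to 85.8 in WT, with 0 of 9 past the test (before adjustment, 0 higher and 2 lower), and Lyve1 was not well above background. Their part in the Maf signal was not tested.

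**Figure D2:**
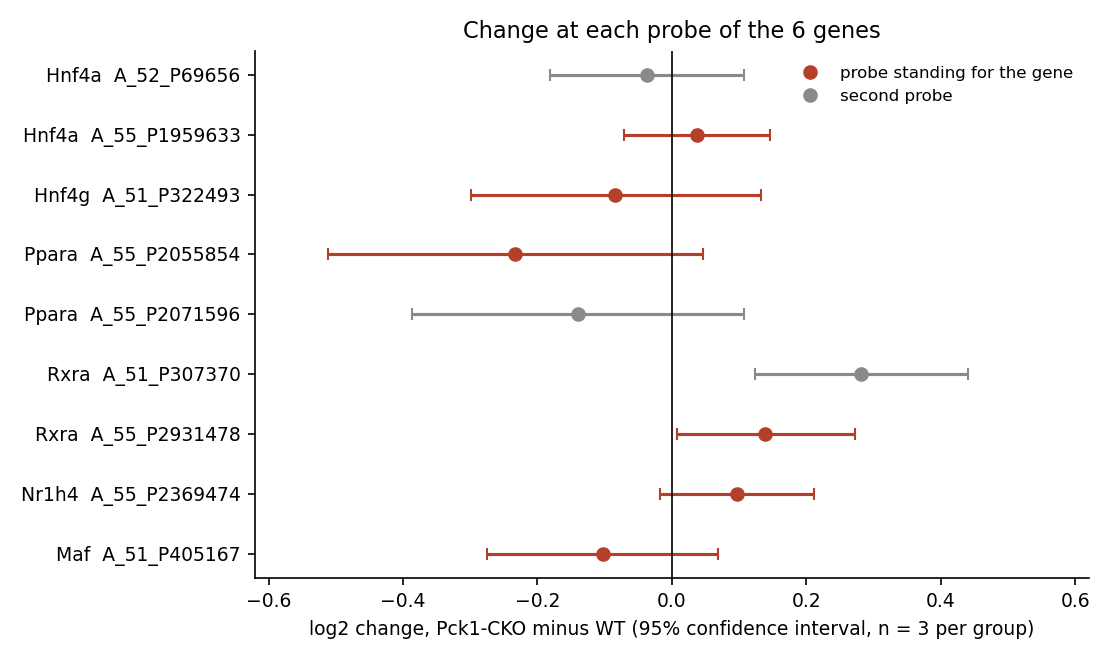
Log2 change (Pck1-CKO minus WT) at each of the 9 probes of the 6 genes, with 95% confidence intervals from a limma fit over all 38366 probes. Red marks the probe that stands for the gene and grey a second probe. Intervals of both Rxra probes lie above 0, and those of the other 7 probes include 0.

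The genes most alike to each of the 6 were taken by Pearson's r over the 6 arrays, among 15454 other genes with a proper symbol. For Ppara these were Tnni3, Ciart and Txnip, with r of 0.998, 0.997 and 0.996. Ciart is a repressor of the circadian clock and Txnip encodes an inhibitor of thioredoxin. Ciart read -4.02, -3.77 and -3.31 in Pck1-CKO and -3.00, -3.11 and -1.27 in WT, so WT 3 was high for it as well. Its change of -1.24 ± 0.53 did not pass (adjusted p = 0.176). For Maf the closest were Rmdn1, Usp8 and Cdh4 (r of 0.997, 0.996 and 0.995). For Rxra they were Cd14, Ubqln1 and Fbxo7 (0.998, 0.997 and 0.997), for Nr1h4 Spire2, Rwdd4a and Nop16 (0.999, 0.997 and 0.997), for Hnf4g Arhgap5, Dlg1 and Tigd4 (0.996, 0.991 and 0.989) and for Hnf4a Srgap3, Stx4a and Nrf1 (0.980, 0.977 and 0.973). With 6 points such values are common: r was above 0.95 for 21 genes with Hnf4a and for 457 with Nr1h4.

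Of 26 tested receptors that share partners or binding sites with the 6, 2 rose and 2 fell, and their median log2 change was -0.012. That is 15.4% called, against 8.04% of all genes. This list and those below were chosen with earlier results of these data known, so their shares are descriptions and were not tested. Pparg, the receptor that drives fat cell formation, rose by 0.98 ± 0.10 (SE, n = 3 per group; limma adjusted p = 0.0154), with 0.36, 0.24 and 0.63 in Pck1-CKO and -0.61, -0.54 and -0.56 in WT. Pparg is itself on the adipocyte list. There 4 of 10 markers rose (with Fabp4, Car3 and Lipe) and 0 fell, where 4.34% of all genes rose and 3.70% fell. The part of fat cells in the rise of Pparg was not tested. Nr2f6, an orphan receptor, rose by 0.27 ± 0.039, and every Pck1-CKO array (4.99 to 5.04) lay above every WT array (4.73 to 4.77). Nr5a2, which controls bile acid and steroid genes in liver, fell by 0.89 ± 0.17, and with the normexp background correction the change was -0.30. Nr3c2, the mineralocorticoid receptor, fell by 0.22 ± 0.046 and was named after its values had been seen. With each array scaled to its median its change was -0.15 (adjusted p = 0.0898). Nr1i2, another of the 26, had a change of -0.53 (adjusted p = 0.0531), just short of the threshold. The RXRA partners Nr1h3 (LXRα) and Ppard, with changes of 0.26 (adjusted p = 0.0548) and 0.28 (adjusted p = 0.0546), also fell just short. These near misses thus went in both directions. Rxrb changed by 0.11 and Vdr by -0.006, and neither passed. None of the 26 passed without Pck1-CKO 1, Pck1-CKO 2, WT 1 or WT 2, while 3 higher and 2 lower passed without Pck1-CKO 3, and 4 higher and 1 lower without WT 3.

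Among 17 coactivators and corepressors, 1 rose and 0 fell, or 5.88% called, against 8.04% of all genes. Ppargc1a, the coactivator of PPARA and HNF4A that drives mitochondrial genes, read 2.87, 2.83 and 3.0 in Pck1-CKO and 3.14, 3.14 and 3.03 in WT. The groups did not overlap, and the change of -0.20 did not pass (adjusted p = 0.097). Over the 17 cofactors the median change was 0.073. None of the 17 passed without any single array other than WT 3, and without WT 3, 2 passed.

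Of the MAF family and its bZIP partners, 11 of 12 were tested and 0 passed in limma, where 8.04% of all genes passed. Before adjustment 1 was higher and 2 were lower at a p under 0.05. Nrl was not well above background. Mafa, a large MAF protein known from pancreatic beta cells, had the lowest p, with 2.04, 1.99 and 1.94 in Pck1-CKO against 1.82, 1.76 and 1.86 in WT (adjusted p = 0.0793). The list's median was 0.057.

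Among 33 other transcription factors of the kidney epithelium, 2 rose and 2 fell, and the median change was 0.012. That is 12.1% called, against 8.04% of all genes. Dmrt2 fell by 0.60 ± 0.052 (limma adjusted p = 0.0141), with -1.20, -1.35 and -1.29 in Pck1-CKO against -0.71, -0.65 and -0.68 in WT. Tfec rose by 0.44 ± 0.076 and Pax2, a factor of kidney development, by 0.21 ± 0.044. With the mean of a gene's probes in place of the brightest, Pax2 changed by 0.085 ± 0.10 and no longer passed (adjusted p = 0.622). Creb3l3, which works with PPARA in fasting liver, fell by 1.77 ± 0.37 (adjusted p = 0.0469) and was named after its values had been seen. It read -1.76, -2.06 and -3.14 in Pck1-CKO, against -0.42, -0.41 and -0.82 in WT. None of the 33 passed without Pck1-CKO 2, WT 1 or WT 2, and 1 passed without Pck1-CKO 1.

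Of 33 tested genes known as targets of HNF4A, 2 rose and 3 fell, and the median change was -0.014. That is 15.2% called, against 8.04% of all genes. With each array scaled to its median 7 rose and 3 fell, with array weights 6 rose and 7 fell, and with no filter on dim probes 0 rose and 2 fell. Among all genes the same settings called 2434 higher and 560 lower, 3285 and 2614, and 61 and 81. The 3 that fell were Apob and Apom, which encode apolipoproteins, and Slc2a2, the basolateral glucose transporter GLUT2. Apob fell by 0.47 ± 0.044 (SE, n = 3 per group; limma adjusted p = 0.0149), with 2.84, 2.73 and 2.78 in Pck1-CKO against 3.26, 3.24 and 3.25 in WT. Apom fell by 0.79 ± 0.082, with 4.23, 4.17 and 4.42 in Pck1-CKO against 5.02, 5.0 and 5.17 in WT. Slc2a2 fell by 0.42 ± 0.053. The 2 that rose, named after their values had been seen, were Apoh (1.90 ± 0.30) and Ttr (1.20 ± 0.21), which encode secreted plasma proteins. Apoh read 1.33, 1.30 and 0.23 in Pck1-CKO, against -0.93, -1.02 and -0.88 in WT, so Pck1-CKO 3 was the lowest of its group. Both are also abundant in liver. The hepatocyte list had summed scaled signals of 92.8 to 134.5 in Pck1-CKO and 61.0 to 73.1 in WT, with Apoa1 and Cps1 not well above background. Its median over genes did not move with the sum. That median was 0.30, -0.97 and -0.72 in Pck1-CKO, against -0.36, -0.20 and 0.26 in WT. Of its 8 tested genes 2 rose and 0 fell, where 8.04% of all genes were called, and 2 changes were negative. The part of such cells was not tested. The proximal tubule genes Lrp2 (0.047 ± 0.046), Slc34a1 (-0.025 ± 0.059) and Slc5a2 (0.022 ± 0.047) did not pass. None of the 33 passed without Pck1-CKO 1, Pck1-CKO 2, WT 1 or WT 2.

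**Figure D3:**
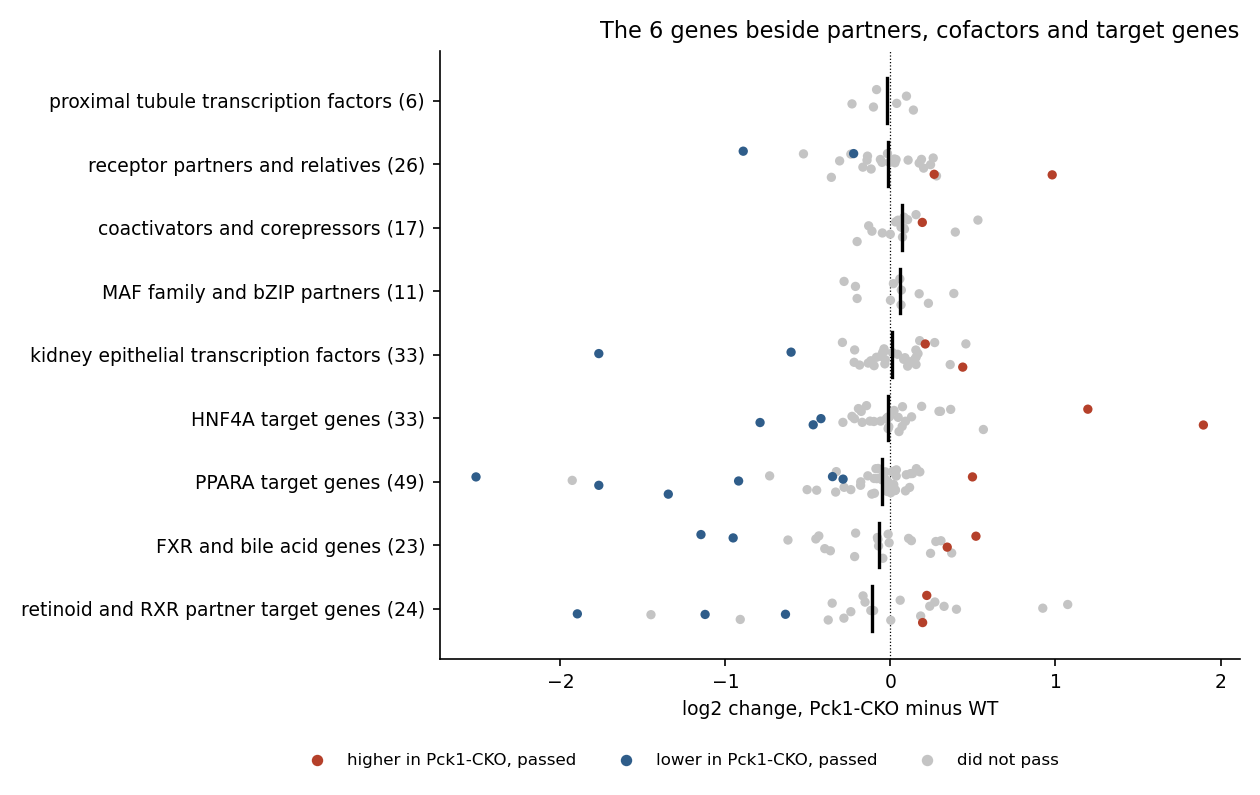
Log2 change (Pck1-CKO minus WT) of every tested gene of the 6 transcription factors and of 8 gene lists around them, 1 point per gene, with the list's median as a black bar. The 6 genes lie between -0.23 and 0.14, and the list medians lie between -0.11 and 0.073.

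Of 49 tested genes known as PPARA targets, 6 fell and 1 rose, where 3.70% and 4.34% of all genes did. These counts depended on the processing: 4 fell and 3 rose with each array scaled to its median, 3 fell and 1 rose with quantile normalization, 10 fell and 5 rose with array weights, and none passed with no filter on dim probes. Among all genes the same settings called 560 lower and 2434 higher, 547 and 655, 2614 and 3285, and 81 and 61. With the normexp background correction 10 of the list fell and 1 rose, and with an intensity trend in limma 10 fell and 2 rose. Those settings called 878 of all genes lower and 998 higher, and 1133 and 1689. In 32 the change was negative, and the median was -0.052. Every Pck1-CKO array lay below every WT array in 19 of the 49 (16.4% of all genes) and above in 3 (21.9% of all genes). Acot3, an acyl-CoA thioesterase, fell by 0.92 ± 0.13 (SE, n = 3 per group; limma adjusted p = 0.0255), with 1.18, 1.13 and 0.82 in Pck1-CKO against 1.89, 1.85 and 2.15 in WT. Cd36, a fatty acid transporter that fat cells also express, rose by 0.50 ± 0.073, with 3.35, 3.35 and 3.12 in Pck1-CKO against 2.80, 2.76 and 2.78 in WT. The adipocyte sums given above moved the same way as Cd36, and their part was not tested.

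Members named after their values had been seen that also fell were Creb3l3, Acot4 (-0.29 ± 0.055), Acaa2 and Fabp1. Acaa2, a mitochondrial thiolase, fell by 0.35 ± 0.074. Fabp1, the liver fatty acid binding protein, fell by 1.35 ± 0.29 (adjusted p = 0.0495), with -0.91, -1.47 and -1.45 in Pck1-CKO against -0.30, -0.13 and 0.65 in WT. Cyp4a10 (-0.73, adjusted p = 0.0639) and Cyp4a14 (-1.93, adjusted p = 0.0732), fatty acid hydroxylases induced by PPARA, had no overlap between groups and did not pass. Cpt1a (-0.021), Acadm (0.036), Ehhadh (-0.052) and Pdk4 (-0.099) did not pass either. None of the 49 passed without Pck1-CKO 1, Pck1-CKO 2, WT 1 or WT 2. Without Pck1-CKO 3, 7 lower and 2 higher passed, and without WT 3, 3 lower and 1 higher.

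**Figure D4:**
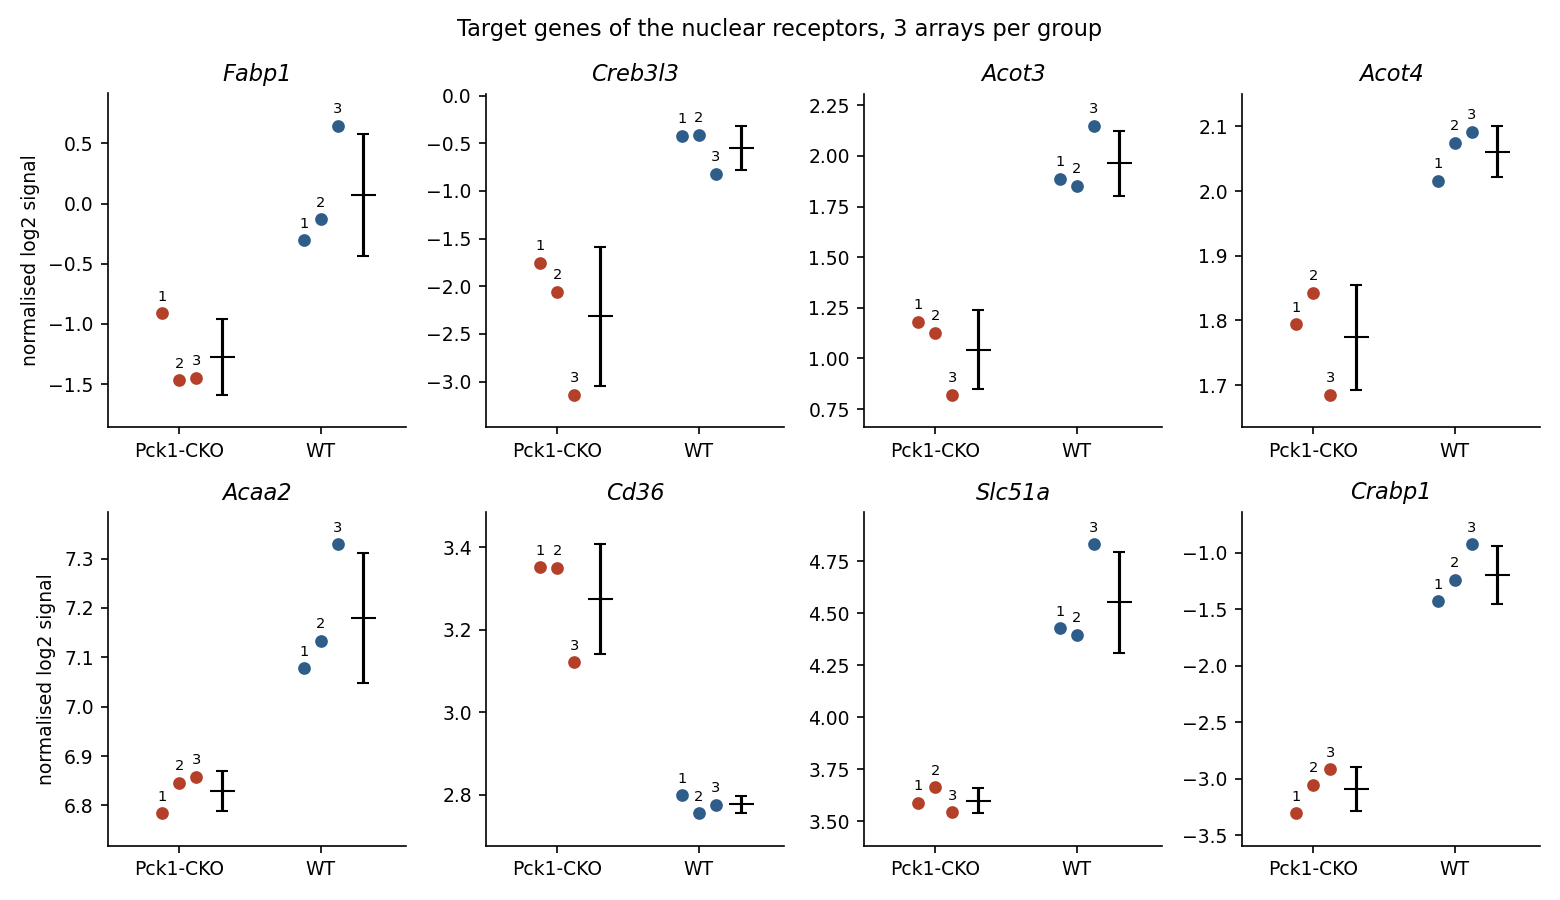
Normalised log2 signal on each array of 8 genes from the PPARA, FXR and retinoid lists, with Pck1-CKO at the left and WT at the right of each panel. Points are arrays with their sample number and bars are the mean and SD of 3 arrays. Fabp1, Creb3l3, Acot3, Acot4, Acaa2, Slc51a and Crabp1 lie lower in Pck1-CKO, and Cd36 lies higher.

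The Fabp1 window, chr6:71199629-71199928 on the plus strand, is printed because it was the 1 window among those found for 20 of the 29 called list genes that held a repeat of the PPARA and RXRA type. The pattern was a DR1 of AGGNCA with 1 base between the copies, on either strand, present in 0.381% of all windows. The Slc51a window, chr16:32487830-32488129 on the minus strand, is shown beside it for a gene of the FXR list. Capitals mark the matches.
Fabp1: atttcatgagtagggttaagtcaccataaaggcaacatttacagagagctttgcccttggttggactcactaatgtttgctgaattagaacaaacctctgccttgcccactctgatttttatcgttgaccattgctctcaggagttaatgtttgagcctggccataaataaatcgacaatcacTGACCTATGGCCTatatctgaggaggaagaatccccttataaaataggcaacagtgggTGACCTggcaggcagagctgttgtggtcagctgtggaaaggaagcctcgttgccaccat
Slc51a: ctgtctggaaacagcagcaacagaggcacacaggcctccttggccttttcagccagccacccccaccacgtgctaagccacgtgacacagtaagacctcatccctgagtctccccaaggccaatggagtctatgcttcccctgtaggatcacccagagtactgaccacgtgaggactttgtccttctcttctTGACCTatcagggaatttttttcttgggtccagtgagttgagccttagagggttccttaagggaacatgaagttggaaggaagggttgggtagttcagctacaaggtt
In Fabp1 the repeat starts 67 bases before the transcription start and overlaps 1 hexamer, with another hexamer 9 bases before the start. In Slc51a 1 hexamer starts 58 bases before it. These matches describe the letters of the windows.

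Genes of FXR and bile acid handling were tested for 23 of 29, since Abcb11, Cyp7a1, Cyp8b1, Fabp6, Fgf15 and Klb were not well above background. Of these 2 rose and 2 fell, with a median of -0.072. That is 17.4% called, against 8.04% of all genes. Slc51a, a subunit of the basolateral bile acid exporter, fell by 0.95 ± 0.13 (SE, n = 3 per group; limma adjusted p = 0.0239), with 3.59, 3.66 and 3.54 in Pck1-CKO against 4.43, 4.4 and 4.83 in WT. Its partner subunit Slc51b changed by -0.36 ± 0.15 and did not pass (adjusted p = 0.173). Baat, which conjugates bile acids, was not well above background in the 3 Pck1-CKO samples and passed the filter only through the 3 WT samples. It is 1 of the 2 counted as lower, but that call is not independent of the filter. With no filter on dim probes Baat did not pass (limma adjusted p = 0.0535). Its WT mean was 1.51-fold the lowest signal still well above background. With the normexp correction the change was -0.21 on the log2 scale, smaller than that fold, so the size depends on the processing. Fgfr4, the receptor for the bile acid hormone FGF15, rose by 0.34 ± 0.047, and Slco1a1, an organic anion transporter named after its values had been seen, by 0.52 ± 0.098. With the mean of a gene's probes the change of Fgfr4 was 0.21 and no longer passed (adjusted p = 0.0546). Nr0b2 (SHP), a classical FXR target, changed by 0.24 ± 0.11 (adjusted p = 0.203). None of the 23 passed without Pck1-CKO 1, Pck1-CKO 2, WT 1 or WT 2.

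Among 24 genes of retinoid handling and targets of RXR partner receptors, 2 rose and 3 fell, with a median of -0.11. That is 20.8% called, against 8.04% of all genes. The list's summed scaled signal was 180.3 to 182.0 in Pck1-CKO and 185.4, 186.1 and 228.4 in WT, so WT 3 stood apart. Without WT 3, 1 higher and 4 lower passed. Crabp1, a cytosolic retinoic acid binding protein, fell by 1.90 ± 0.16 (limma adjusted p = 0.0138), with -3.31, -3.05 and -2.92 in Pck1-CKO against -1.43, -1.24 and -0.92 in WT. With the normexp background correction its change was -1.20. Aldh1a3, which makes retinoic acid, fell by 0.64 ± 0.084, and Tgm2, a transglutaminase induced by retinoic acid, rose by 0.22 ± 0.036. The other genes called were named after their values had been seen. Abcg1, a cholesterol exporter controlled by LXR, rose by 0.20 ± 0.038, and Cyp24a1, the vitamin D hydroxylase controlled by VDR, fell by 1.12 ± 0.23. None of the 24 passed without Pck1-CKO 1, Pck1-CKO 2 or WT 2, and 1 passed without WT 1.

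Scaling each array to its median gave 6 higher and 1 lower among the receptors, 4 and 0 among the cofactors, 1 and 0 in the MAF family, 4 and 2 among the kidney transcription factors, 4 and 3 in the FXR list and 2 and 3 in the retinoid list. This scaling called 2434 of all 17136 genes higher and 560 lower. Over the 8 lists 29 different genes were called. Of these, 22 were still called without Pck1-CKO 3 and 20 without WT 3, but 1 without Pck1-CKO 1, 0 without Pck1-CKO 2, 1 without WT 1 and 0 without WT 2.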

How the data were processed

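Per the labels, Cy3-labelled total RNA of whole kidney was measured on Agilent arrays of 1 colour. The deposited intensity values are Agilent Feature Extraction 10.7.1.1 output, whose processed signal was already background-subtracted, per the file headers. In the series matrix the authors deposited a ratio on a linear scale, equal to the processed signal over 1 factor per array, with column medians of 0.100, 0.098 and 0.099 in Pck1-CKO and 0.105, 0.104 and 0.103 in WT.

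From these values log2 of the processed signal minus each array's 75th percentile was computed. Spots with outlier flags (46 to 94 per array) were left out, and no spot was saturated. The filter kept probes that 3 or more of the 6 arrays showed well above background (38371 of 56605, with 37118 to 38708 above background per array). The number of arrays limits the precision. Probe accessions were named through RefSeq (GRCm38.p6), which gave 34675 probes a symbol and 21930 none, and the brightest probe stood for a gene. Pck1-CKO was tested against WT with limma 3.58.1 in R 4.3.3 (lmFit and eBayes, Benjamini-Hochberg, threshold 0.05), without a replicate block, after testing on simulated data. Same-numbered samples did not deviate together. The files lacked a mean spot signal, so normexp (offset 50) used the median spot and background signals. In all 17 alternatives were tried.

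Members and lists were chosen with earlier results of these data known. Besides the 6 genes, up to 3 called genes of lowest p were named per list, or the gene of lowest p where none was called, and the 3 genes of highest r. Genes named beyond this rule were chosen after their values were seen. Some members of the lists are counted but not reported here by name.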

Additional observations from a re-analysis of the deposited data

How the results depend on the processing

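Over 17 alternatives none of the 6 genes changed direction. The log2 change ran from 0 to 0.11 for Hnf4a, -0.16 to -0.008 for Hnf4g, -0.30 to -0.11 for Ppara, 0.080 to 0.21 for Rxra, 0.054 to 0.17 for Nr1h4 and -0.14 to -0.027 for Maf. Rxra passed with each array scaled to its median (0.21, adjusted p = 0.0476) and with array weights (0.16, adjusted p = 0.0207), and Nr1h4 with array weights (0.13, adjusted p = 0.0298), so 1 and 2 of the 6 were then called higher. Among all 17136 genes, 2434 and 3285 were called higher with these settings. Median scaling subtracts a single value per array and so shifted the change of every gene by the same amount. Rxra moved from 0.139 to 0.215, Hnf4a from 0.038 to 0.113 and the median of all genes from 0.009 to 0.085. The cause of the passes with array weights was not tested. The second Hnf4a probe reversed with median scaling (0.038, against -0.037).

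Of all genes, 743 were called higher and 634 lower. The counts were 2434 higher and 560 lower with median scaling, which moved the median of all genes to 0.085, 61 and 81 with no filter on dim probes, 1689 and 1133 with an intensity trend, and 3285 and 2614 with array weights. They were 3 and 1 with the replicate number as a block, for which the correlations of same-numbered samples were -0.001, -0.12 and -0.023. Leaving out 1 array at a time gave 16 to 779 higher and 9 to 806 lower. The 3 arrays per group limit the precision.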
